A study of Mus musculus with 4 samples.

Results

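The genes described here are 9 genes of type 2 and type 17 innate-like lymphocytes, found by their symbols among the 55401 genes of the deposited tables. *Gata3*, *Il1rl1*, *Il5*, *Il13*, *Areg*, and *Klrg1* represent group 2 innate lymphoid cells (ILC2), and *Il17a*, *Il23r*, and *Il17re* represent γδ T cells of the IL-17–producing kind. They were measured by RNA sequencing of CD45+ leukocytes sorted from the dura mater of WT male C57BL/6J mice. At 4 wk of age, the mice had received a single injection of an AAV serotype 9 vector into the cisterna magna, the CSF space behind the brainstem. AAV-mVEGF-C carried full-length mouse VEGF-C, the ligand that makes lymphatic vessels grow, and AAV-CTRL, given to the control mice in the same way, encoded a soluble part of VEGFR-3 that does not bind VEGF-C. Strain, sex, and age are those given for the study's mice in general. Each group had 2 libraries made from pooled meninges, with 10 to 12 mice per treated group in the methods, so the spread between libraries is a spread between pools, not between single mice.

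ILC2 are tissue-resident lymphocytes without antigen receptors. They respond to alarmins, cytokines such as IL-33 that injured or stressed barrier cells release, through receptors such as ST2, and under the control of GATA-3 they secrete IL-5 and IL-13, which act on eosinophils and on macrophages and stromal cells. IL-17–producing γδ T cells respond to IL-23 and IL-1β and are known as residents of the meninges and other barriers. Many of these genes are shared with other leukocytes. *Il1rl1* is also expressed by mast cells and regulatory T cells, *Areg* by several myeloid and lymphoid cells, and *Klrg1* by NK cells and T cells.

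The libraries held 32520709 to 46409700 reads assigned to genes, of which the 9 genes took 17639 to 21758, or 0.0469 to 0.0562%. AAV-CTRL 1 stood apart, with the most reads, the fewest detected genes (20990, against 29221 to 37512 in the others), and a correlation with the other libraries of 0.925 to 0.934 across genes, against 0.968 to 0.973 among those. *Ptprc*, which encodes CD45, was at 191 to 215 TPM in all 4 libraries, and myeloid markers summed to 2009 to 2513 TPM. Markers of fibroblasts were also present, at a sum of 48.4 to 163 TPM, so the sorted cells were not free of stromal RNA. *Vegfc*, the gene carried by the treatment vector, had 208 and 106 reads in AAV-CTRL and 65 and 59 in AAV-mVEGF-C, lower in the latter, and the labels were not checked by it.

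The windows before the start sites of 5 of the 9 genes are shown because the cytokine and receptor genes of type 2 cells are classic targets of GATA-3, and because *Il17a* and *Il5* are the cytokine genes among the 9 whose libraries separated by group in CPM. Each is the 250 bases before the RefSeq start site on GRCm38.p6, read 5′ to 3′ on the strand of the gene. Capitals mark GATAA, the core letters bound by GATA factors, and AGGTCA, the core letters bound by many nuclear receptors, each on either strand. The 2 motifs did not overlap in these windows.
Il17a (chr1:20730655-20730904, plus strand): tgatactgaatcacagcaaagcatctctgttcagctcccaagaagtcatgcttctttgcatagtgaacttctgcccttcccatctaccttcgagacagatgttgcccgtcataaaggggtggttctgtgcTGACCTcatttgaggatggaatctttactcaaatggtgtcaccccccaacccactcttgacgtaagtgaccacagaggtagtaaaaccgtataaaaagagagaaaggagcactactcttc
Il23r (chr6:67491856-67492105, minus strand): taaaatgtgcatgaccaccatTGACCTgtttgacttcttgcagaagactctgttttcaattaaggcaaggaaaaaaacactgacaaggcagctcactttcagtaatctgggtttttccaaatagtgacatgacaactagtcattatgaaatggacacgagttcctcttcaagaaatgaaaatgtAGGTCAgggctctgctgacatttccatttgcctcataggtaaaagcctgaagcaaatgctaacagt
Il1rl1 (chr1:40429320-40429569, plus strand): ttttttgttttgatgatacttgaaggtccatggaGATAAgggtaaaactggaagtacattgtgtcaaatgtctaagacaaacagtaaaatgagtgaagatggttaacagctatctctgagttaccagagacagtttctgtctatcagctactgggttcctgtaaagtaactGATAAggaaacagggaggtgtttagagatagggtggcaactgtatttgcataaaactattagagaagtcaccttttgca
Il13 (chr11:53634703-53634952, minus strand): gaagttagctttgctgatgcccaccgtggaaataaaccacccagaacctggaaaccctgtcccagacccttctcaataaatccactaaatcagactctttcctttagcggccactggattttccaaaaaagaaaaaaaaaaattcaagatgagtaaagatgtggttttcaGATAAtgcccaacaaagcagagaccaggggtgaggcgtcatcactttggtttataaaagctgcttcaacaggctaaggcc
Il5 (chr11:53720544-53720793, plus strand): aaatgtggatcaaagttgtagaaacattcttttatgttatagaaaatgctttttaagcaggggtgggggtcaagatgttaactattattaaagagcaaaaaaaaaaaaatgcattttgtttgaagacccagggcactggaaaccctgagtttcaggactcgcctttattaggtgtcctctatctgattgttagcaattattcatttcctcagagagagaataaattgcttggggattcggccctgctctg

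RefSeq gave 9 such windows for 8 of the 9 genes, with 2 for *Il1rl1* and none matched for *Klrg1*. GATAA was present in 3 of the 9 windows, both of *Il1rl1* and that of *Il13*, and in 22.6% of all 32851 windows of this length. AGGTCA was present in 3 windows, those of *Il17a* and *Il23r* and the second of *Il1rl1*, and in 14.0% of all windows. A match describes the letters only, not binding.

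In transcripts per 1000000 (TPM), which are scaled for gene length, the 9 genes spanned a wide range of levels. *Il1rl1*, which encodes the IL-33 receptor ST2, and *Areg*, which encodes the epidermal growth factor family ligand amphiregulin, had the highest levels, at a mean of 66.6 and 66.4 TPM over the 4 libraries, and did not differ beyond their spread. *Gata3*, the transcription factor of type 2 lymphocytes and of T cell development, followed at 31.4 TPM and did not overlap with either neighbor in the order. The cytokine genes came next, *Il13* at 7.67 TPM and *Il17a* at 7.33 TPM, followed by *Il23r* at 4.10 and *Il5* at 3.0 TPM. *Klrg1*, an inhibitory receptor gene of mature ILC2 and NK cells, was at 1.63 TPM, and *Il17re* was at 1.39 TPM. From *Il13* downward, each gene overlapped in its 4 libraries with the next one. *Il17a* varied the most, by 14.5-fold between its lowest and highest library, whereas the receptor gene *Il23r* varied by 1.78-fold.

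**Figure D1:**
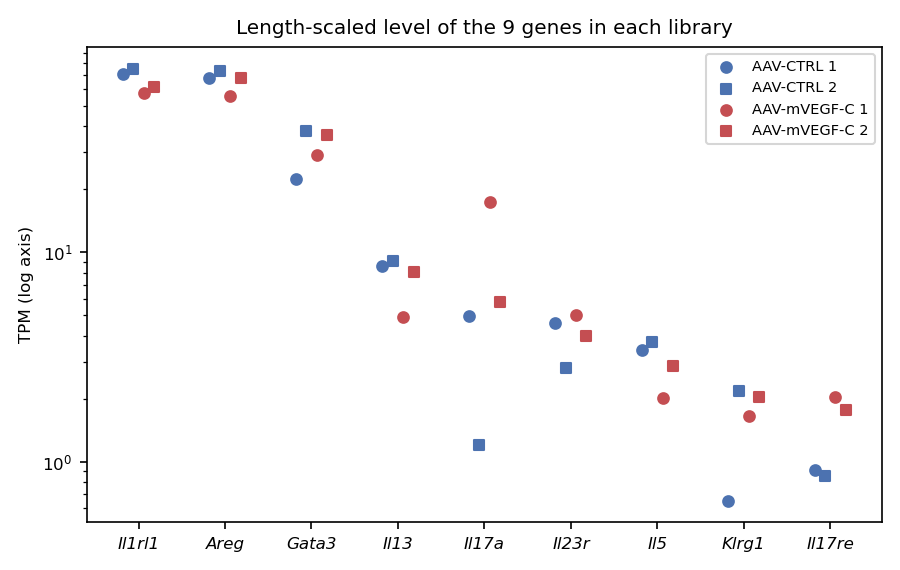
Length-scaled level (TPM, log axis) of the 9 genes in each of the 4 libraries, ordered by mean level; blue, AAV-CTRL, red, AAV-mVEGF-C; circle, library 1, square, library 2. *Il1rl1* and *Areg* lie between 55.7 and 75.5 TPM, and *Il17a* spreads from 1.20 to 17.4 TPM.

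The design asks which of these genes differ between dural leukocytes after AAV-mVEGF-C and after AAV-CTRL. All 9 genes passed the expression filter, which left 19806 genes, and none reached an adjusted p under 0.05 in edgeR's quasi-likelihood test, as was the case for 0% of all genes tested. Before adjustment, 2 of the 9, *Il17a* and *Il17re*, had a p under 0.05, as did 2.64% of all tested genes (523). Both were higher after AAV-mVEGF-C, beside 1.46% of all tested genes. DESeq2 called 77 genes (0.389%), 0 of them among the 9. In reads per 1000000 scaled by edgeR's TMM factors (CPM), the libraries of the 2 groups did not overlap for 3 of the 9 genes, beside 31.9% of all tested genes. The AAV-mVEGF-C libraries were higher for *Il17a* and *Il17re*, beside 16.8% of all tested genes, and lower for *Il5*, beside 15.2%. The counts of separated genes, 2 of 9 and 1 of 9, lie close to the shares over all genes and do not set the 9 genes apart. The unadjusted count, 2 of 9, lies above its share, but neither gene passed the adjusted test. In bulk RNA, a change in the number of cells of a type and a change in RNA per cell cannot be told apart.

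**Figure D2:**
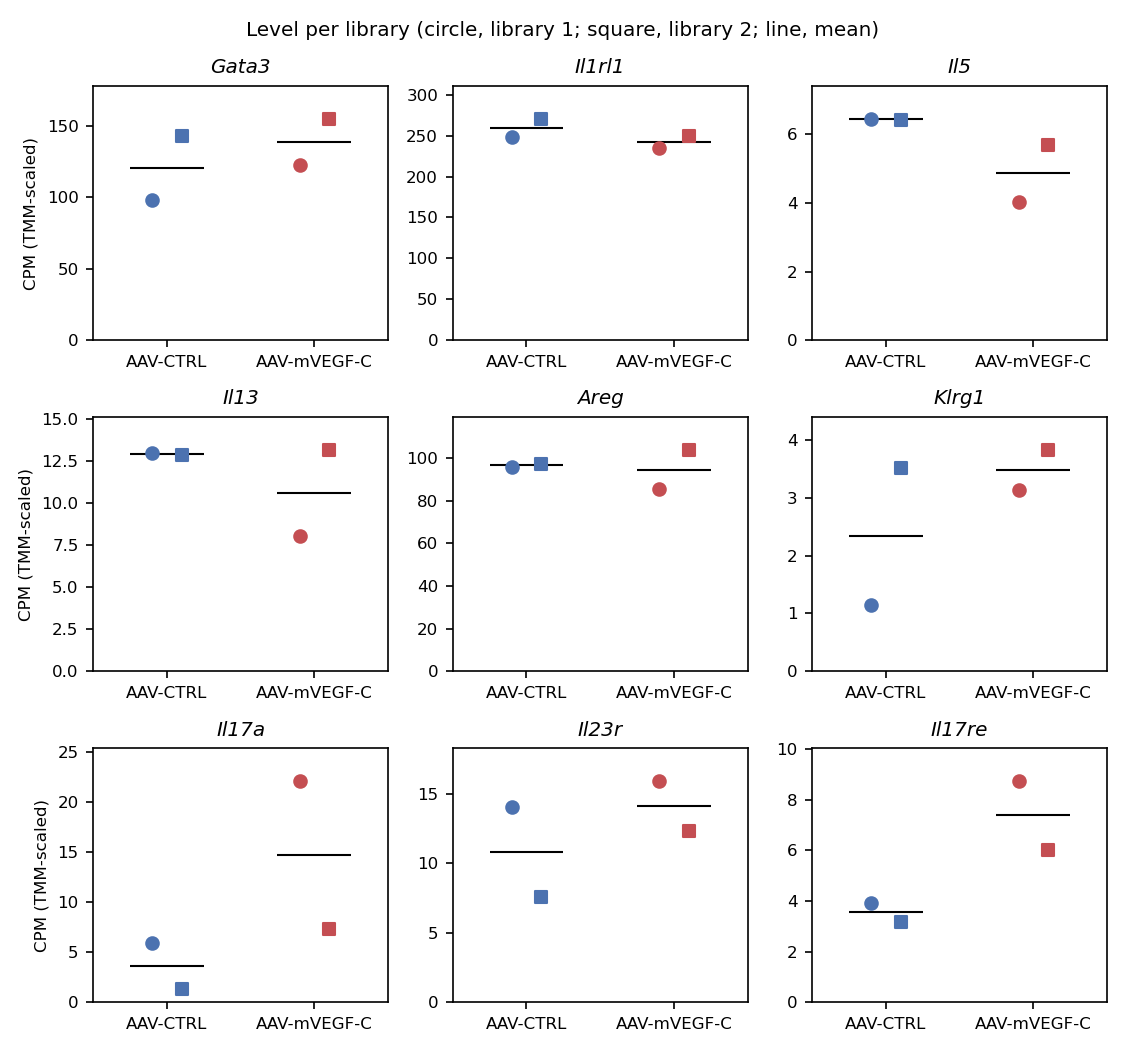
Level of each gene in CPM (TMM-scaled, linear axis from 0) in AAV-CTRL (blue) and AAV-mVEGF-C (red); circle, library 1, square, library 2, line, mean of 2 pools. Both AAV-mVEGF-C libraries lie above both controls for *Il17a* and *Il17re* and below them for *Il5*.

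*Il17a*, which encodes the cytokine IL-17A (ENSMUSG00000025929.4; GRCm38 chromosome 1, 20730905 to 20734496, plus strand), was at 5.97 and 1.34 CPM for AAV-CTRL 1 and 2 and at 22.1 and 7.35 CPM after AAV-mVEGF-C 1 and 2, from 267, 46, 862, and 233 reads. Both AAV-mVEGF-C libraries were above both controls, but the higher control and the lower AAV-mVEGF-C library differed by 1.38 CPM only, and the libraries of each group were far apart. The means were 3.65 ± 3.28 CPM (SD, n = 2 pools) and 14.7 ± 10.4 CPM (SD, n = 2), a log2 fold change of 2.00 with a standard error (SE) of 0.80 and a 95% interval of 0.07 to 3.94. The adjusted p was 0.999 from edgeR. Without AAV-CTRL 1, the log2 fold change was 3.46 with an adjusted p of 0.00937, and without AAV-CTRL 2 it was 1.30 with an adjusted p of 0.135. Without AAV-mVEGF-C 1 it was 1.0, so the size of the difference depended on single pools while its direction did not.

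*Il17re*, which encodes a receptor subunit that pairs with IL-17RA to bind IL-17C (ENSMUSG00000043088.16; chromosome 6, 113458484 to 113470758, plus strand), was at 3.94 and 3.17 CPM with AAV-CTRL and at 8.73 and 6.03 CPM after AAV-mVEGF-C. The groups were separated by 2.09 CPM, and the controls lay close together. The means were 3.55 ± 0.543 CPM (SD, n = 2) and 7.38 ± 1.91 CPM (SD, n = 2). The log2 fold change was 1.05 (SE 0.36; 95% interval, 0.19 to 1.92; adjusted p = 0.999 from edgeR), and it ranged from 0.77 to 1.30 when each library was left out in turn. With reads scaled for length, the libraries also separated, at 0.915 and 0.851 TPM against 2.03 and 1.77 TPM.

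*Il23r*, which encodes the specific subunit of the IL-23 receptor (ENSMUSG00000049093.9; chromosome 6, 67422932 to 67491855, minus strand), was at 14.0 and 7.56 CPM with AAV-CTRL and at 15.9 and 12.4 CPM after AAV-mVEGF-C. The groups overlapped, since AAV-CTRL 1 lay between the AAV-mVEGF-C libraries. The log2 fold change was 0.39 (SE 0.35; 95% interval, −0.47 to 1.24; adjusted p = 0.999 from edgeR). It was 0.01 without AAV-CTRL 2, the lowest library, and 0.90 without AAV-CTRL 1.

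Among the type 2 genes, *Il5*, the eosinophil growth factor gene (ENSMUSG00000036117.2; chromosome 11, 53720794 to 53725106, plus strand), was at 6.44 and 6.43 CPM with AAV-CTRL and at 4.04 and 5.68 CPM after AAV-mVEGF-C. The controls were nearly equal, and both AAV-mVEGF-C libraries were lower, with means of 6.43 ± 0.0112 CPM (SD, n = 2) and 4.86 ± 1.16 CPM (SD, n = 2). The log2 fold change was −0.40 (SE 0.33; 95% interval, −1.21 to 0.40; adjusted p = 0.999 from edgeR). It was −0.17 without AAV-mVEGF-C 1 and −0.67 without AAV-mVEGF-C 2. The reads behind it were few, 288 and 221 against 158 and 180.

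*Il13*, whose product drives alternative macrophage activation and tissue remodeling (ENSMUSG00000020383.1; chromosome 11, 53631324 to 53634702, minus strand), lies 86091 bases from *Il5* in the type 2 cytokine locus, with *Rad50* between them. It was at 13.0 and 12.9 CPM with AAV-CTRL and at 8.06 and 13.2 CPM after AAV-mVEGF-C. AAV-mVEGF-C 1 was low and AAV-mVEGF-C 2 was just above the controls, so the groups overlapped. In TPM they did not, at 8.62 and 9.08 against 4.93 and 8.05 TPM. The log2 fold change was −0.29 (SE 0.30; 95% interval, −1.02 to 0.44; adjusted p = 0.999 from edgeR), and it was 0.03 without AAV-mVEGF-C 1.

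The most abundant type 2 genes differed little. *Il1rl1* (ENSMUSG00000026069.15; chromosome 1, 40429570 to 40465415, plus strand) was at 248 and 270.0 CPM with AAV-CTRL and at 235 and 249.8 CPM after AAV-mVEGF-C. The groups overlapped, with a log2 fold change of −0.095 (95% interval, −0.47 to 0.28). In TPM, however, the libraries did not overlap, at 71.4 and 75.5 against 57.6 and 61.8 TPM, so the order depended on the scale. *Areg* (ENSMUSG00000029378.5; chromosome 5, 91139599 to 91148432, plus strand) was at 96.1 and 97.3 CPM with AAV-CTRL and at 85.4 and 103.7 CPM after AAV-mVEGF-C, with the controls between the AAV-mVEGF-C libraries. Its log2 fold change was −0.03 (95% interval, −0.43 to 0.37). For both genes, the interval leaves out a 2-fold difference in either direction.

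*Gata3* (ENSMUSG00000015619.10; chromosome 2, 9857078 to 9890034, minus strand) was at 98.3 and 143 CPM with AAV-CTRL and at 123 and 155 CPM after AAV-mVEGF-C. The groups overlapped, with a log2 fold change of 0.20 (95% interval, −0.36 to 0.77) that was −0.04 without AAV-CTRL 1. Genes that overlap *Gata3* on either strand had at most 39 reads in any library. *Klrg1* (ENSMUSG00000030114.8; chromosome 6, 122270596 to 122282882, minus strand) was at 1.14 and 3.52 CPM with AAV-CTRL and at 3.12 and 3.82 CPM after AAV-mVEGF-C. Its log2 fold change of 0.58 (95% interval, −0.91 to 2.06) rested on AAV-CTRL 1, which had 51 reads, and was −0.02 without it. The adjusted p was 0.999 from edgeR for these 4 genes.

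**Figure D3:**
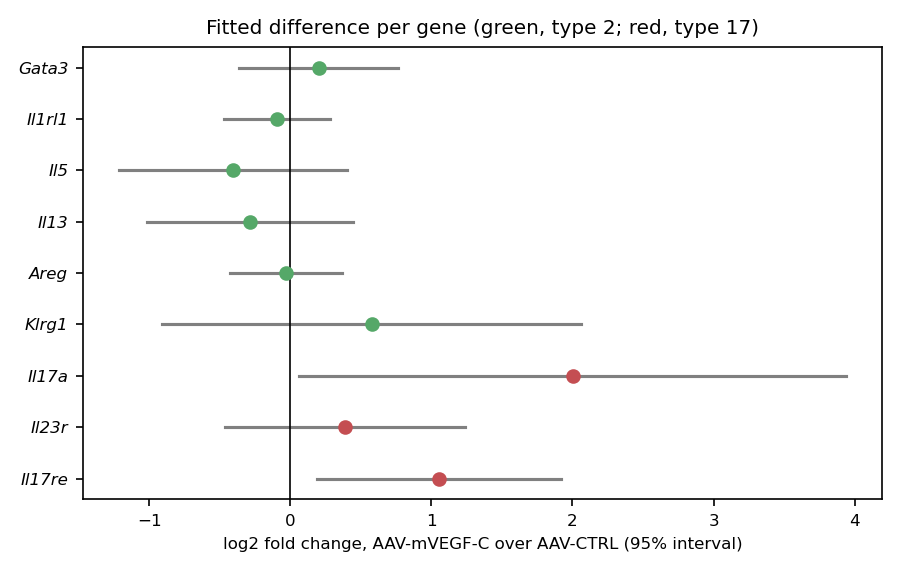
Fitted log2 fold change of each gene, AAV-mVEGF-C over AAV-CTRL (point), with its 95% interval from edgeR (line); green, type 2 genes, red, type 17 genes. The intervals of *Il17a* (0.07 to 3.94) and *Il17re* (0.19 to 1.92) lie above 0 before adjustment, and those of the other 7 genes include 0.

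Other genes of the type 17 pathway were read from a list ordered by role, of which 31 of 37 symbols were in the tables and 30 were tested. None had an adjusted p under 0.05 in edgeR. Before adjustment 4 of 30 had a p under 0.05, all of them higher after AAV-mVEGF-C, beside 2.64% of all tested genes in either direction and 1.46% higher. DESeq2 called 1, *Il17f*, beside 0.389% of all genes. This gene passed the filter of the edgeR fit only through its AAV-mVEGF-C libraries. With at least 10 reads required in every library, 27 genes of the list were tested, without *Il17f*, and 0 passed in edgeR. In CPM, the groups did not overlap for 10 of the 30, higher in each case, beside 16.8% of all tested genes. In the lower direction 0 separated, beside 15.2%. Of the 10, *Il23a*, *Il12b*, *Batf*, and *Cd163l1* overlapped between groups in TPM, so their separation depended on the scale. The median log2 fold change was 0.16, against 0.0034 over all tested genes.

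Of the effectors, *Il17f*, the neighbor and closest relative of *Il17a*, had 12 and 6 reads in AAV-CTRL and 166 and 33 in AAV-mVEGF-C. Both AAV-mVEGF-C libraries, at 4.25 and 1.04 CPM, were above both controls, at 0.268 and 0.174 CPM. *Il17f* passed the expression filter only through its AAV-mVEGF-C libraries, and it was not tested where at least 10 reads were required in every library. The log2 fold change was 3.55 (SE 0.91; adjusted p = 0.999 from edgeR and 0.0349 from DESeq2). It was 2.22 without AAV-mVEGF-C 1, 4.24 without AAV-mVEGF-C 2, and 1.17 in limma on log2(TPM + 1). *Il22*, which encodes a cytokine that acts on epithelia, had 15 reads in each control and 49 and 71 in AAV-mVEGF-C, a log2 fold change of 2.17 (SE 0.76; adjusted p = 0.999 from edgeR) that was 0.83 in limma on log2(TPM + 1). *Il21*, a cytokine gene of helper T cells, had 7 to 20 reads and overlapped.

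Of the transcription factors, *Ahr*, which encodes the aryl hydrocarbon receptor that supports IL-22 expression, was at 34.5 and 34.6 CPM with AAV-CTRL and at 47.6 and 49.8 CPM after AAV-mVEGF-C (log2 fold change 0.50, SE 0.16). The controls of *Ahr* were nearly equal. *Batf*, an AP-1 factor gene of IL-17–producing T cells, also separated, at 13.0 and 16.1 against 18.1 and 23.98 CPM, but overlapped in TPM. *Stat3* and *Maf*, the other 2 of the 3 most abundant factors of the list, overlapped between groups, with log2 fold changes of 0.02 and −0.06. The adjusted p was 0.999 from edgeR for each of these factors.

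Genes of the γδ T cell receptor overlapped between the groups. *Trdc*, the constant gene of the δ chain, was at 38.0 and 24.2 CPM with AAV-CTRL and at 29.0 and 28.5 CPM after AAV-mVEGF-C. *Trdv4*, the variable gene of the δ chain used by γδ T cells of the meninges and other barriers, was at 25.005 and 13.2 CPM with AAV-CTRL and at 16.8 and 16.2 CPM after AAV-mVEGF-C. In both, the AAV-mVEGF-C libraries lay between the controls, and the log2 fold changes were −0.12 and −0.22. The γ constant genes *Trgc1*, *Trgc2*, and *Trgc4* had log2 fold changes of −0.20, −0.36, and −0.06. These γ genes are close paralogs, and reads could be divided among them. Of the 7 genes of this list, 1 separated the groups, beside 31.9% of all tested genes in either direction and 16.8% higher. It was the scavenger receptor gene *Cd163l1*, at 44.6 and 43.7 against 51.8 and 61.0 CPM, which overlapped in TPM.

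Of the genes that induce the program, *Il1b*, at 412 TPM the most abundant gene of the list, overlapped between groups, as did *Tgfb1*. *Il6* was at 6.55 and 8.40 CPM with AAV-CTRL and at 10.1 and 11.1 CPM after AAV-mVEGF-C, without overlap (log2 fold change 0.50, SE 0.27). *Il23a* and *Il12b*, which encode the subunits of IL-23, also separated in the higher direction in CPM, but overlapped between groups in TPM. *Il12b* was at 10.8 and 10.6 CPM with AAV-CTRL and at 11.5 and 18.4 CPM after AAV-mVEGF-C. For *Il23a* the gap between the groups was small, at 1.72 CPM in AAV-CTRL 1 and 1.77 CPM after AAV-mVEGF-C 1. *Il17c*, the ligand gene of IL-17RE, had 0 and 1 reads in AAV-CTRL and 3 and 1 in AAV-mVEGF-C, at or under the floor of 3 reads, and did not pass the filter. Of the receptor genes, *Il17ra*, the shared subunit of IL-17 receptors, was at 190.4 and 181.5 CPM with AAV-CTRL and at 214.9 and 218.6 CPM after AAV-mVEGF-C (log2 fold change 0.22, SE 0.15). The other 7, among them *Cxcr6* and *Il6st*, overlapped between groups.

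Genes of the type 2 pathway outside the 6 were higher or lower by small amounts. Of 37 listed, all were in the tables and 35 were tested, with 0 under an adjusted p of 0.05 in edgeR and 0 in DESeq2. Before adjustment 3 of 35 had a p under 0.05, all higher after AAV-mVEGF-C, beside 2.64% of all tested genes in either direction and 1.46% higher. In CPM, the groups did not overlap for 7 higher and 2 lower genes of the 35, beside 16.8 and 15.2% of all tested genes. The median log2 fold change was 0.09.

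Of the alarmins, *Il33* was at 2.59 and 5.44 CPM with AAV-CTRL and at 2.66 and 3.09 CPM after AAV-mVEGF-C, with AAV-mVEGF-C between the controls. *Tslp* had 2 and 28 reads in AAV-CTRL and 26 and 17 in AAV-mVEGF-C. *Il25* had 0 reads in every library, which allows up to 0.0646 to 0.0923 CPM. These genes are expressed mainly by stromal and epithelial cells, which the sort was set to leave out.

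Of the 12 receptor genes, *Il2rg*, *Il7r*, and *Il2ra* had the highest levels, *Il2rg* at 78.6 and *Il7r* at 39.0 TPM, and overlapped between groups. *Il17rb*, the receptor gene for IL-25, was at 17.7 and 27.0 CPM with AAV-CTRL and at 33.2 and 32.3 CPM after AAV-mVEGF-C (log2 fold change 0.56, SE 0.24). *Icos*, a costimulatory receptor gene of ILC2 and T cells, was at 58.7 and 80.8 CPM with AAV-CTRL and at 91.5 and 95.4 CPM after AAV-mVEGF-C. The neuropeptide receptor gene *Nmur1*, a marker of ILC2, was at 1.05 and 4.48 CPM with AAV-CTRL and at 2.87 and 3.44 CPM after AAV-mVEGF-C. It overlapped, and its lowest library was AAV-CTRL 1, as for *Klrg1*.

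Of the transcription factors, *Zbtb16*, which encodes PLZF, a factor of ILC precursors and innate-like T cells, was at 29.7 and 26.7 CPM with AAV-CTRL and at 41.6 and 41.8 CPM after AAV-mVEGF-C. Its libraries agreed closely within each group, with a log2 fold change of 0.565 (SE 0.17; adjusted p = 0.999 from edgeR). *Rora*, which encodes RORα, required for ILC2 development, was at 115 and 149 CPM with AAV-CTRL and at 180.1 and 179.7 CPM after AAV-mVEGF-C (log2 fold change 0.445, SE 0.18; adjusted p = 0.999 from edgeR). *Bcl11b* and *Tcf7*, factors shared by ILC2 and T cells, also separated in the higher direction in CPM. In TPM, *Rora* and *Bcl11b* overlapped between groups, and the lowest library of both was AAV-CTRL 1. *Id2*, *Ets1*, and *Stat6*, the most abundant factors of the list, overlapped.

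Of the effectors, *Calca*, which encodes the neuropeptide CGRP, was at 11.0 and 12.3 CPM with AAV-CTRL and at 21.2 and 18.2 CPM after AAV-mVEGF-C (log2 fold change 0.76, SE 0.22; adjusted p = 0.999 from edgeR). *Il4* overlapped between groups, and *Il9* had 0 reads in every library. *Csf2*, at 40.9 TPM the most abundant effector gene, overlapped between groups. Of the receptors that receive type 2 cytokines, *Csf2rb*, *Il4ra*, and *Il13ra1* overlapped, with log2 fold changes of 0.06, 0.13, and 0.04. *Egfr*, the amphiregulin receptor gene, was at 15.1 and 22.8 CPM with AAV-CTRL and at 13.0 and 12.5 CPM after AAV-mVEGF-C.

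**Figure D4:**
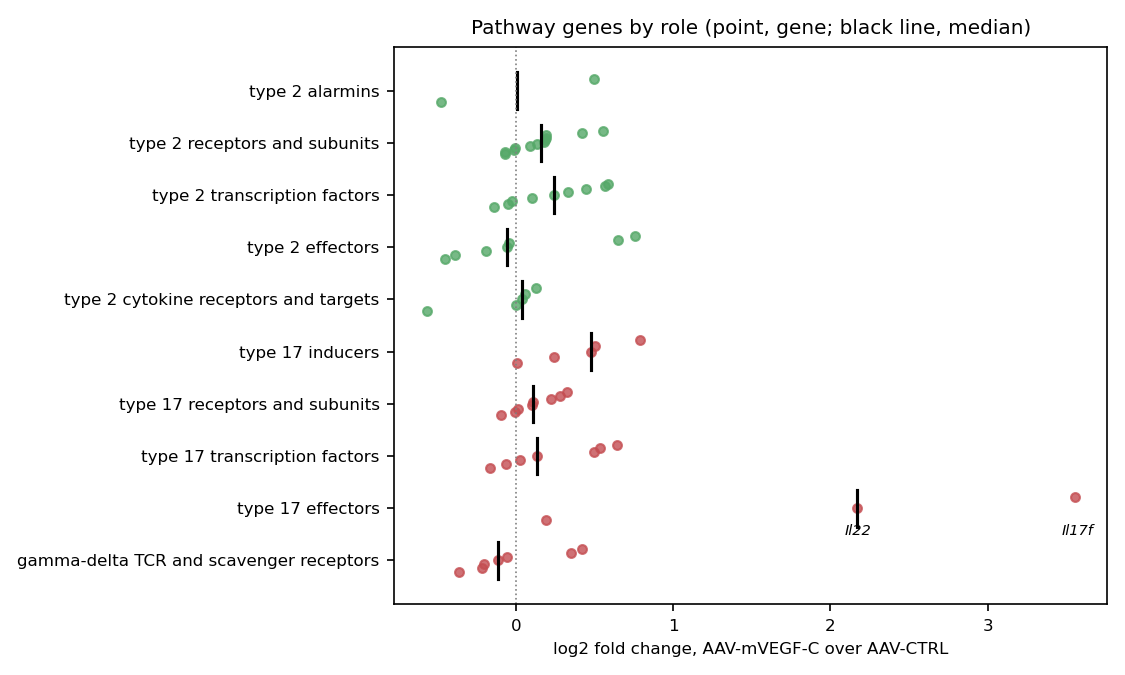
Log2 fold change (AAV-mVEGF-C over AAV-CTRL, edgeR) of the tested genes of each role list, the 9 genes themselves left out; green, type 2 lists, red, type 17 lists; points, genes, black line, median of the list. *Il17f* (3.55) and *Il22* (2.17) lie apart from all other genes, and the γδ receptor list has a median of −0.12.

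Markers of other cells that share these genes were read in the same way, and none had an adjusted p under 0.05 in edgeR. Of 10 T cell markers, 5 separated in the higher direction and 0 in the lower, beside 16.8 and 15.2% of all tested genes, and the list summed to 218 and 248 TPM in AAV-CTRL and to 274 and 285 TPM in AAV-mVEGF-C. *Trac* and *Trbc1*, constant genes of the αβ T cell receptor, were among the 5, with log2 fold changes of 0.88 and 0.70. *Trbc2*, also a constant gene of that receptor, overlapped between groups, with a log2 fold change of 0.02. *Cd3d*, *Cd3e*, *Cd8a*, and *Cd8b1* overlapped too, at 0.13, 0.22, −0.10, and −0.10. Of 5 regulatory T cell markers, *Foxp3* and *Ctla4* separated in the higher direction, although the list summed to 53.0 to 68.7 TPM in AAV-CTRL and 62.5 to 63.8 TPM in AAV-mVEGF-C. The part of these cells in the levels of *Il17a*, *Il17f*, and *Il22* was not tested.

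Mast cells, which express *Il1rl1* and can express *Il13* and *Areg*, had 6 of 8 markers separated in the lower direction and 0 in the higher. For this and the following lists, the shares over all tested genes are again 15.2% lower and 16.8% higher, and no marker had an adjusted p under 0.05 in edgeR. The list summed to 1538 and 1150 TPM in AAV-CTRL and to 834 and 895 TPM in AAV-mVEGF-C. Of 3 basophil markers, 1, *Cd200r3*, separated in the lower direction, and the list summed to 12.3 to 12.9 TPM against 6.05 to 6.80 TPM. Of 4 eosinophil markers 1 separated, in the higher direction, and the sums overlapped, at 62.7 to 210 TPM in AAV-CTRL and 130 to 143 TPM in AAV-mVEGF-C. NK cell markers, of which 3 of 6 separated in the lower direction, summed to 63.2 to 65.9 TPM against 43.1 to 53.6 TPM. Of 4 B cell markers 1 separated in the lower direction, and the list summed to 81.3 to 218 TPM against 73.0 to 86.6 TPM. Fibroblast markers separated in the lower direction for 5 of 6 and endothelial markers for 2 of 3. No marker of these lists was at 0 in every library, and the part of any of these cells in the levels of *Il1rl1*, *Il5*, *Il13*, *Areg*, *Klrg1*, and *Egfr* was not tested.

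For 8 of the 9 genes, the gene with the most similar profile over the 4 libraries was taken from the other 119 tested genes of the pathway and marker lists. The measure was the distance between profiles of log2(CPM + 1), each centered on its own mean. *Il17a* was closest to *Il17f*, at a distance of 1.1 beside a spread of its own of 2.3, and *Il23r* to *Il1r1*, the IL-1 receptor gene (0.19). *Il5* and *Il13* were both closest to *Pparg* (0.22 and 0.18), a nuclear receptor gene of ILC2 and macrophages. *Il1rl1* and *Areg* were both closest to *Tph1* (0.12 and 0.044), a serotonin synthesis gene of mast cells and ILC2. *Klrg1* was closest to *Il9r* (0.27) and *Gata3* to *Klrb1c* (0.082). With 4 libraries, these distances only describe the profiles.

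The differences of *Il17a*, *Il17re*, and *Il5* kept their direction under the 12 other ways of processing that were tried. *Il17a* passed the threshold in 2 of them, without AAV-CTRL 1 and without a filter on low counts, where 1.07 and 0.659% of all tested genes passed. None of the 9 passed without AAV-CTRL 2, where 9.08% of all genes did, or with a replicate block in the fit, without and with the numbers crossed, where 0.0555 and 0.273% did.

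**Figure D5:**
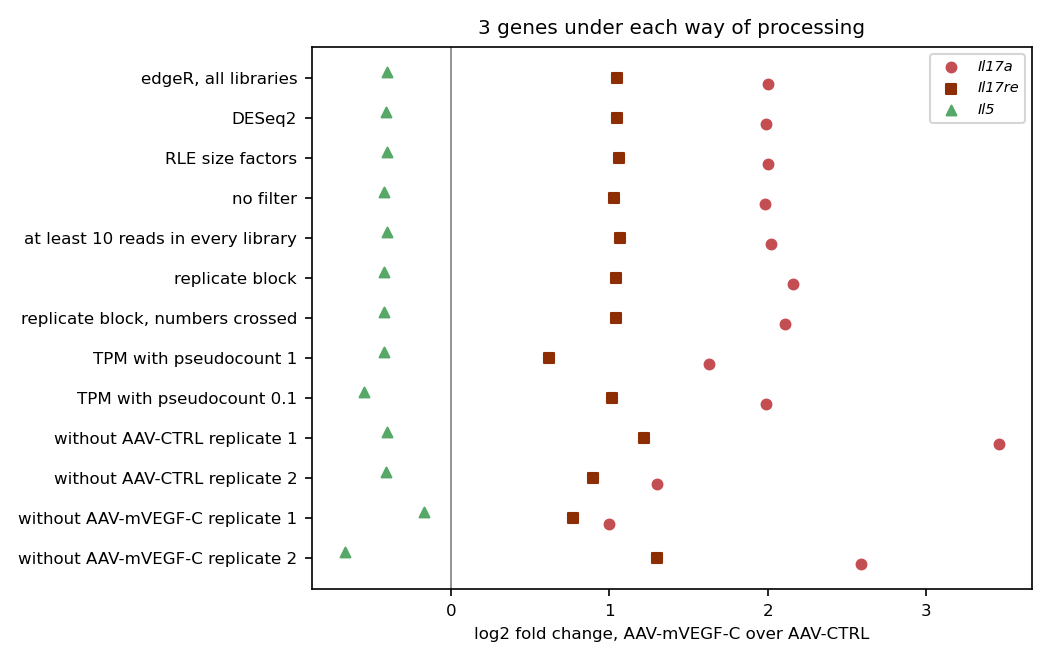
Log2 fold change (AAV-mVEGF-C over AAV-CTRL) of *Il17a*, *Il17re*, and *Il5* in edgeR with all libraries and under each alternative. *Il17a* ranges from 1.0 to 3.46 and *Il17re* from 0.62 to 1.30, all above 0, and *Il5* ranges from −0.67 to −0.17.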

How the data were processed

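CD45+ dural cells were measured in 4 libraries (2 AAV-CTRL, 2 AAV-mVEGF-C), made with a stranded total RNA kit for picogram inputs. The authors deposited estimated counts per gene, without normalization, of which 8.18% had decimals, and TPM values of the same genes. The submitters' processing notes name FastQC, Trimmomatic, DRAGEN, Picard, and mm10, and the counting program, its strand setting, and its annotation are not given in the sources used here. All 9 identifiers occur with the same version in GENCODE M21 (GRCm38), which gave the coordinates.

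Estimated counts were rounded and tested in R 4.3.3 with edgeR 4.0.16 (quasi-likelihood), using TMM scaling, filterByExpr, no covariate, all 4 libraries, and Benjamini-Hochberg adjustment over 19806 genes, at a threshold of 0.05. A standard error is the log2 fold change divided by the square root of F, and a 95% interval uses the degrees of freedom of the fit. p-values measure the spread between these pools. The scripts were tested on simulated data. 1 read is worth 0.0215 to 0.0308 CPM, and the floor of 3 reads covers counting error only.

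The genes named are the 9, list genes with an unadjusted p under 0.05, the 3 most abundant of each role list, and the nearest profile of each gene, apart from items that are not reported here; other list genes named were chosen after their values were seen. The 9 genes and the lists were chosen with earlier results of these data known. The methods do not tie the age, strain, and pool size to single libraries. The listed symbols not found were γ chain genes written as Tcrg. Alternatives were DESeq2 1.42.0, RLE factors, 2 other filters, limma 3.58.1 on log2(TPM + 1) and log2(TPM + 0.1), a replicate block, and each library left out, which assumes that the lone pool of a group varies like the other group. A crossed block was added after seeing the data.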

Additional observations from a re-analysis of the deposited data

How the results depend on the processing

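Of 108 comparisons of the 9 genes with an alternative, 102 kept the direction and the side of the threshold. *Il17a* passed in 2, without a filter on low counts (log2 fold change 1.98, adjusted p = 1.81e-05 from edgeR) and without AAV-CTRL 1 (3.46, adjusted p = 0.00937), over a range of adjusted p from 1.81e-05 to 1. The direction reversed in 4, each near 0: *Gata3* was at −0.04 and *Klrg1* at −0.02 without AAV-CTRL 1, and *Il13* was at 0.03 and *Areg* at 0.11 without AAV-mVEGF-C 1. With a library left out, *Gata3* ranged from −0.04 to 0.49, *Klrg1* from −0.02 to 1.60, *Il13* from −0.68 to 0.03, and *Areg* from −0.18 to 0.11. The cause was not tested.

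The number of the 9 genes with an adjusted p under 0.05 was 0 in the main test, 1 without a filter, and 0 to 1 with a library left out. For the type 17 list it was 0, and 1 (*Il17f*) with DESeq2 and without a filter. It was 0 with at least 10 reads in every library, where *Il17f* was not tested. For the type 2 list it was 0, and 0 to 5 with a library left out, the 5 being *Bcl11b*, *Calca*, *Icos*, *Il17rb*, and *Rora* without AAV-CTRL 2. Over all genes it was 0 (523 before adjustment), 77 with DESeq2, 268 without a filter, and 0 to 1798 with a library left out, the highest without AAV-CTRL 2, then 212 without AAV-CTRL 1 and 2 without AAV-mVEGF-C 1. It was 0 with RLE factors (533 before adjustment), with at least 10 reads in every library (556), and in limma on TPM with a pseudocount of 1 (902) or 0.1 (884).

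The labels give both groups the experiment numbers 1 and 2, while the column names of the tables number the libraries differently. Across genes, deviations of same-numbered libraries from their group means correlated at −0.134 on log2 CPM and at −0.0353 on log2(CPM + 1). With 2 libraries per group, this rests on the difference within each group alone and cannot decide whether the numbers pair the pools. The main fit held no block, and a block was tried as an alternative. With the replicate block, 11 genes passed, 0 of them among the 9, and with the numbers crossed 54 passed, again 0 among the 9. Under the block, *Il17a* had a log2 fold change of 2.16 (adjusted p = 0.164 from edgeR).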

Other observations

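Ratios of reads within a library do not depend on its scaling. They were computed after the values had been seen. There were 0.157 and 0.0554 reads of *Il17a* per read of *Trdc*, the δ chain constant gene, in AAV-CTRL 1 and 2, against 0.762 and 0.258 in AAV-mVEGF-C 1 and 2. Per read of *Il23r*, the reads of *Il17a* were 0.425 and 0.177 for AAV-CTRL and 1.39 and 0.594 in AAV-mVEGF-C. In both ratios the AAV-mVEGF-C libraries were above the controls, although *Trdc* and *Il23r* themselves overlapped between groups.

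There were 0.495 and 0.500 reads of *Il5* per read of *Il13* for AAV-CTRL and 0.502 and 0.432 in AAV-mVEGF-C, with AAV-mVEGF-C 2 the lowest. Reads of *Il13* per read of *Gata3* were 0.132 and 0.0901 for AAV-CTRL and 0.0658 and 0.0851 in AAV-mVEGF-C.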
